A study of Mus musculus with 4 samples.

Results

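Genes whose transcripts are known targets of adenosine-to-inosine editing were followed through the variant lists of 2 mouse cancer cell lines, MBT2 and LM8. The 9 genes were Azin1, Cog3, Cdk13, Flna, Igfbp7, Mad2l1, Lactb2, Cds2 and Son. Every single-base substitution annotated to one of these 9 genes was taken, whatever its type. The genes held 22 listed substitutions, 15 of 2802 in LM8 and 7 of 3169 in MBT2, which lay at 18 distinct sites. The MBT2 line, labelled as clone 63, derives from a bladder cancer, and LM8 from an osteosarcoma. Both come from C3H/HeN mice and were grown in culture without treatment, with 10% serum. Each line gave 2 poly(A) RNA libraries, sequenced as paired reads of 75 bases, and 1 joint list of variants. Whether the duplicates came from different cultures is not stated in the labels, and p-values across libraries therefore measure a spread that may be only technical. No DNA of the lines and no editing-deficient cells were among the samples, so a change in the RNA and a change in the genome cannot be told apart at any site.

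Enzymes of the ADAR family convert adenosine to inosine in double-stranded RNA, and sequencing reads inosine as guanosine. An edited site therefore appears as A>G on the RNA strand, which in the genome's orientation is T>C for a gene on the reverse strand. Most editing in mammals lies in untranslated and intronic sequence, and a small group of sites in coding sequence changes an amino acid. The best known of these recoding sites include the serine-to-glycine site of Azin1, the isoleucine-to-valine site of Cog3, the glutamine-to-arginine site of Flna and the lysine-to-arginine site of Igfbp7.

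The sequences around the sites on which the results turn are shown 5′ to 3′ on the RNA strand, with the changed base in capitals. They were read from GENCODE transcripts of the build GRCm38 by codon number or by distance from the stop codon, not by genome coordinate.
Azin1 S367G: caaattgtggaaAgctgtcttcttc
Cog3 I635V: accattaaggaaAtttccctggacc
Cdk13 Q35R: tcctgtcccctcAgcagccgccgct
Flna Q2333R: tttctagtcttcAggagtcagggtt
Igfbp7 K95R: gcaagaggcggaAgggtaaagccgg
Mad2l1 3′ UTR, lower site: ccgacattgataAatgtgtgttatt
Mad2l1 3′ UTR, higher site: taaatgtgtgttAttgttccatttc
Lactb2 3′ UTR: ttctacagttctAtgctatgtttat
In Azin1 and Cog3 the base just before the capital is an A that was also listed as changed. Both Mad2l1 sites are shown because their levels differ although they lie 10 bases apart.

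Almost all substitutions in these genes were A>G on the RNA strand. In LM8 all 15 were A>G (100%, exact 95% interval 78.2 to 100), against 17.7% of the 2510 LM8 substitutions with a known gene strand. In MBT2 5 of 7 were A>G (71.4%, 29.0 to 96.3), against 21.5% of 2954. The complementary change T>C, at 23.4% and 24.3% of all substitutions in LM8 and MBT2, was not seen in the 9 genes. The genes were chosen as editing targets and with earlier results of these data known. These shares therefore describe the choice and were not tested. With the second LM8 library left out and at least 3 alternative reads required in the first, 9 of the 15 LM8 sites were counted. The A>G changes were missense at 7 sites, synonymous at 2 and in the 3′ UTR at 4 in LM8, with 2 more annotated upstream of a Flna transcript. In MBT2 3 were missense, 1 synonymous and 1 in the 3′ UTR.

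The read pairs themselves gave the strand, since the kit was directional. At the A>G sites of the 9 genes all 5376 reads with a recorded pair orientation, 590 of them with the alternative base, had the orientation of the gene's own strand. Over all coding and 3′ UTR substitutions of both lists this share was 99.3%. The alternative bases lay at a median distance of 7 to 31 bases from the end of the read at the A>G sites. The median over all listed substitutions was 5 bases, and 31.1% of those were at 1 base.

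The highest level of any site in these genes was at the isoleucine-to-valine site of Cog3 in LM8. Cog3 encodes a subunit of the conserved oligomeric Golgi complex, which tethers vesicles in retrograde Golgi transport. The site lies at chromosome 14, position 75957159 (GRCm39, as all positions here), in exon 17 of ENSMUST00000049168, where the codon change Att to Gtt gives I635V. In LM8 23 of 26 reads carried G in replicate 1 (88.5%) and 16 of 20 in replicate 2 (80%), together 84.8% of 46 reads (71.1 to 93.7). In MBT2 15 of 61 reads (24.6%) and 13 of 69 (18.8%) carried it, together 21.5% of 130 reads (14.8 to 29.6). Both LM8 libraries lay above both MBT2 libraries, and the intervals of the lines did not overlap.

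The difference at Cog3 was 4.14 in log2 odds, higher in LM8 (SE 0.55, 95% interval 2.79 to 5.48). limma's moderated test on the log2 odds of the 4 libraries, 2 per line, ranked the site first by p among the 230 substitutions that both lists held. Its adjusted p (limma, Benjamini-Hochberg over these 230) was 0.0552, so the site missed the threshold of 0.05. limma called 0 of the 230 (0.0%) after adjustment and 17 (7.39%) at an unadjusted p under 0.05. Fisher's exact test (two-sided) on the reads summed per line, which compares reads and not cultures, called Cog3 with an adjusted p = 2.53e-12, as 1 of 13 sites (5.65%), with 19 sites (8.26%) at an unadjusted p under 0.05. In Fisher's exact test C>T sites of Def8 (adjusted p = 1.67e-178) and Tuba1a (1.62e-32), both lower in LM8, came before Cog3. Over all alternatives run, the adjusted p at Cog3 ranged from 2.53e-12 to 0.626 (limma or Fisher's exact test), so the call depends on the setting. An exact permutation test over 2 against 2 libraries cannot reach 0.05 and was not used.

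The base before it, the last of the glutamate codon E634 (position 75957160, gaA to gaG, no change of amino acid), was listed in LM8 alone. It carried G in 1 of 25 reads (4%) and 2 of 20 reads (10%), 6.67% together (1.40 to 18.3). The valine site was 12.7 times as high as its neighbour over both libraries, 22.1 times in replicate 1 and 8 times in replicate 2. The ratio is imprecise because the lower site rests on 3 reads.

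Azin1 carried the deepest recoding site, at a low level in both lines. The gene encodes antizyme inhibitor 1, which binds antizyme and so keeps ornithine decarboxylase, the first enzyme of polyamine synthesis, from being degraded. At the S367G site (chromosome 15, position 38491856, exon 11 of ENSMUST00000065308, codon Agc to Ggc) LM8 had G in 11 of 329 reads (3.34%) and 10 of 291 (3.44%). MBT2 had it in 32 of 602 (5.32%) and 19 of 628 (3.03%). The lines stood at 3.39% of 620 reads (2.11 to 5.13) and 4.15% of 1230 (3.10 to 5.42), and their libraries overlapped. The difference LM8 minus MBT2 was -0.22 in log2 odds (95% interval -1.51 to 1.07, limma adjusted p = 0.985).

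The glutamate codon E366 of Azin1, whose last base precedes the S367G site (position 38491857, gaA to gaG, synonymous), was changed at a lower level, again in both lines. LM8 had 4 of 329 reads (1.22%) and 4 of 290 (1.38%), and MBT2 had 5 of 599 (0.835%) and 5 of 626 (0.799%). Both LM8 libraries were above both MBT2 libraries, by a margin of few reads, and the difference of 0.70 in log2 odds (-0.46 to 1.86) did not pass limma's test (adjusted p = 0.981). The serine site was 2.62 times as high as the glutamate site in LM8 and 5.08 times in MBT2.

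**Figure D1:**
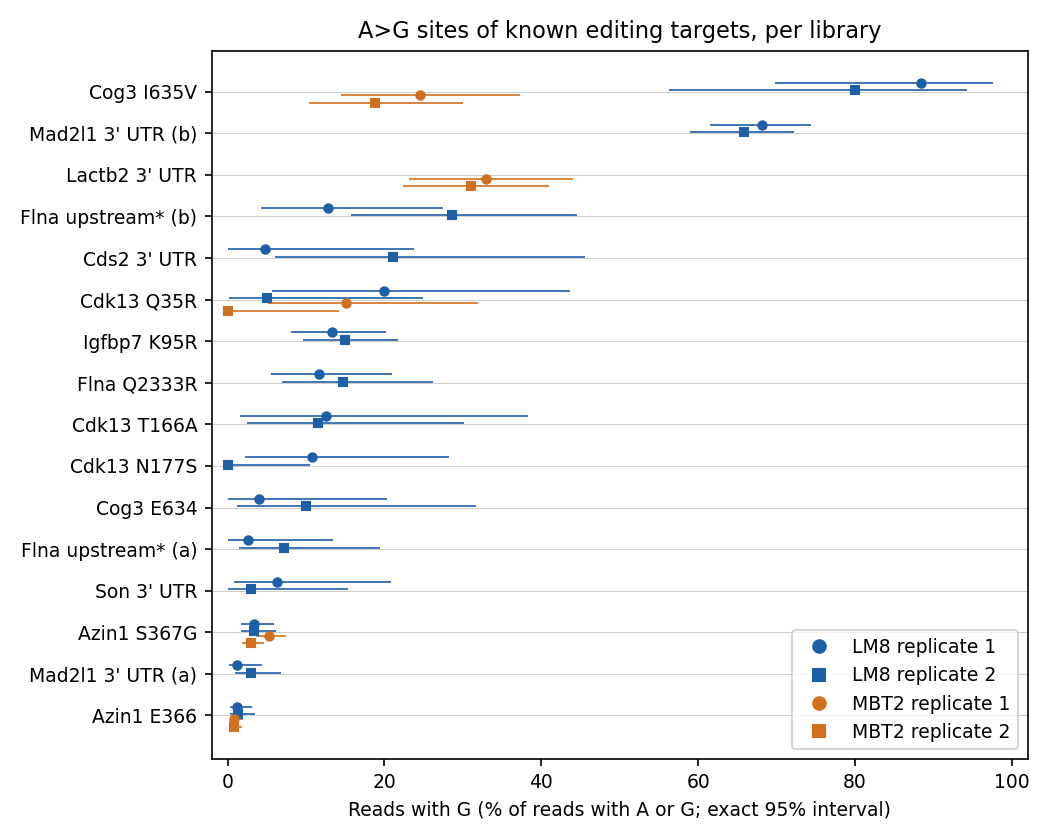
Share of reads with G at each A>G site of the 9 genes (x axis, percent of reads with A or G), 1 point per library with its exact 95% binomial interval; blue is LM8, orange MBT2, circles replicate 1 and squares replicate 2. Sites marked (a) and (b) are the lower and higher position number of a pair, the asterisk marks Flna sites annotated upstream of a short transcript, and a line without points at a site did not list it. Cog3 I635V stands at 80% and 88.5% in LM8 and at 18.8% and 24.6% in MBT2, while the Azin1 sites of both lines lie below 6%.

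Cdk13, a cyclin-dependent kinase that pairs with cyclin K and phosphorylates RNA polymerase II, held 3 missense A>G sites in LM8, all in exon 1 of ENSMUST00000042365. The glutamine-to-arginine site Q35R (chromosome 13, position 17979133) was in both lists. It carried G in 4 of 20 reads (20%) and 1 of 20 (5%) in LM8, and in 5 of 33 reads (15.2%) and 0 of 24 in MBT2, where 0 reads allow a share of up to 12.5%. The lines stood at 12.5% (4.19 to 26.8) and 8.77% (2.91 to 19.3). Libraries of the lines overlapped, and the difference of 1.21 in log2 odds had an interval from -1.65 to 4.06 (limma adjusted p = 0.981).

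The other Cdk13 sites, T166A (position 17978741) and N177S (position 17978707), were in the LM8 list alone. T166A had G in 2 of 16 reads (12.5%) and 3 of 26 (11.5%). N177S had 3 of 28 reads (10.7%) in replicate 1 and 0 of 33 in replicate 2, which allows up to 9.09%. The depth of 40 to 61 reads per site in LM8 leaves these levels imprecise.

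Flna, which encodes the actin crosslinking protein filamin A, carried 3 A>G sites in LM8 and none in the MBT2 list. Its missense site Q2333R (chromosome X, position 73270468, exon 41 of ENSMUST00000101454, codon cAg to cGg) had G in 9 of 77 reads (11.7%) and 9 of 61 (14.8%), 13.0% together (7.92 to 19.8). A pair of neighbouring sites lay 212 and 213 bases further along the transcript direction, at positions 73270256 and 73270255, which the annotation places 171 and 170 bases upstream of a short processed transcript of Flna. The first had 5 of 39 reads (12.8%) and 12 of 42 (28.6%), 20.99% together (12.7 to 31.5), and was 4.25 times as high as the second, with 1 of 39 (2.56%) and 3 of 42 (7.14%). Whether these bases are intronic in the main Flna transcript was not determined, because coordinates of a GRCm39 annotation were not used here.

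Both MBT2 substitutions in Flna were of another kind. They were C>A (position 73267108) and G>A (position 73267261) in the 3′ UTR, at 2.03% of 345 reads (0.820 to 4.14) and 1.69% of 1424 reads (1.08 to 2.50). The 2 libraries had 1.81% and 2.23% at the first and 1.60% and 1.76% at the second. At both sites the alternative bases had a median distance of 1 base from the end of the read, against 7 or more at every A>G site of the 9 genes. The part of read ends in these calls was not tested.

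Igfbp7, a secreted protein that binds insulin-like growth factors, carried K95R in LM8 (chromosome 5, position 77555578, exon 1 of ENSMUST00000046746, codon aAg to aGg). G was in 18 of 135 reads (13.3%) and 22 of 147 (15%), 14.2% together (10.3 to 18.8). The duplicates were close, and this was the second deepest of the recoding sites in LM8. The recoding sites of LM8 other than Cog3 thus spanned 3.39% to 14.2%.

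Sites in 3′ UTRs ranged from about the lowest to nearly the highest level. Mad2l1 encodes the spindle checkpoint protein that restrains the anaphase-promoting complex until chromosomes are attached. Its site 138 bases past the stop codon (chromosome 6, position 66517065, exon 5 of ENSMUST00000101343) had G in 148 of 217 LM8 reads (68.2%) and 137 of 208 (65.9%), 67.1% together (62.4 to 71.5). The site 128 bases past the stop codon (position 66517055) had 2 of 163 (1.23%) and 5 of 169 (2.96%), 2.11% together (0.852 to 4.3). The 2 sites, 10 bases apart, differed 31.8-fold over both libraries, 55.6-fold in replicate 1 and 22.3-fold in replicate 2, with 7 reads behind the lower site. MBT2 listed neither.

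Lactb2, a mitochondrial endoribonuclease gene, was listed in MBT2 alone. Its 3′ UTR site (chromosome 1, position 13696239, 846 bases past the stop codon, exon 7 of ENSMUST00000027071) had G in 28 of 85 reads (32.9%) and 32 of 103 (31.1%), 31.9% together (25.3 to 39.1). This was the highest A>G level of the 9 genes in MBT2, above Cog3 at 21.5%, whose interval overlaps it. Cds2, an enzyme of phosphatidylinositol synthesis, had 1 of 21 (4.76%) and 4 of 19 reads (21.1%) in LM8 at chromosome 2, position 132151553. Son, a splicing cofactor of nuclear speckles, had 2 of 32 (6.25%) and 1 of 34 reads (2.94%) in LM8. The Son site lies at chromosome 16, position 91462094, 32 bases past the stop codon of the transcript ENSMUST00000119368. With so few reads the intervals were wide, from 4.19 to 26.8% for Cds2 and from 0.947 to 12.7% for Son.

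**Figure D2:**
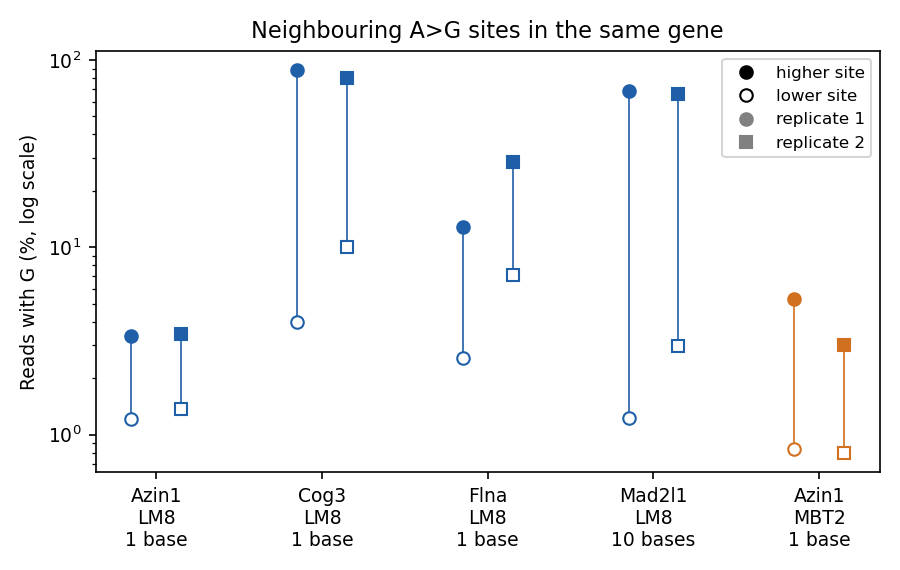
Share of reads with G (y axis, percent, log scale) at A>G sites at most 10 bases apart in the same gene and line, with filled symbols for the higher and open symbols for the lower site of a pair. Circles are replicate 1, squares replicate 2, blue is LM8 and orange MBT2. In every pair shown the same site was the higher one in both libraries, with ratios of the pooled shares from 2.62 in Azin1 of LM8 to 31.8 in Mad2l1.

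Neighbouring A>G sites recurred in these genes. In LM8 6 of the 15 A>G sites had another A>G site at the adjacent base, in Azin1, Cog3 and Flna (40%), against 10 of all 444 A>G sites of the LM8 list (2.25%). In MBT2 2 of 5 did, both in Azin1, against 20 of 635 (3.15%). These counts were not tested, since the genes were chosen as editing targets and with earlier results of these data known.

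The bases beside the sites could be read for 14 of the 16 A>G sites. The base before the changed A was A at 8, T at 3, C at 2 and G at 1 site (7.14%). Over the 822 A>G sites of both lists that could be placed in a transcript, a G came before it in 22.4%, and before A>C and A>T changes in 32.8% of 174. The single member with a preceding G was Son (gattgaggggagAgaaggcagatct). A G followed the site in 5 of 14 (35.7%), namely Azin1 S367G, Cdk13 Q35R, Flna Q2333R, Igfbp7 K95R and Son, against 49.0% of the 822. ADAR enzymes are known to be sensitive to the bases beside the edited A. The shares of neighbouring bases were not tested as a sign of editing. A G was less frequent here than over the 822 both before and after the site. The adjacent sites of Azin1 and of Cog3 count separately among the 8 with an A before.

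Predicted folding of the mature transcript around the sites was described without a test. In a window of 100 bases on each side, the changed A was paired at 6 of 14 sites, against 43.8% of 786 listed A>G sites. The median predicted free energy was -52.3 kcal per mol against -50.6. The 3 Cdk13 windows, at -105.1 to -110.2, and that of Igfbp7 K95R, at -96.8, were among the most stable. The Lactb2 window was the weakest of the 786 A>G sites folded, at -16.4. Windows of Cdk13 T166A and N177S, 34 bases apart, overlap, as do those of the neighbouring sites in Azin1, Cog3 and Mad2l1. Introns, which form part of the duplex at some known recoding sites, are not in these windows.

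The lines shared 4 of these A>G sites, at Cog3 I635V, Cdk13 Q35R and both Azin1 positions. That is 26.7% of the 15 in LM8 and 80% of the 5 in MBT2, against 11.0% and 7.72% of all A>G substitutions in the lists. The genes were chosen with earlier results of these data known, so their overlap between the lists describes the choice and was not tested. A site missing from a list can be uncovered, unexpressed or filtered in that line, so absence gives no level. Among all missense A>G substitutions, 111 in LM8 and 158 in MBT2, only 6 were in both lists, and 3 of those were in the 9 genes. The other 3, named after their values were seen, were Psmb4 N253D, Thrap3 K375R and Mast2 R58G, at 2.40% to 6.12% in both lines.

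**Figure D3:**
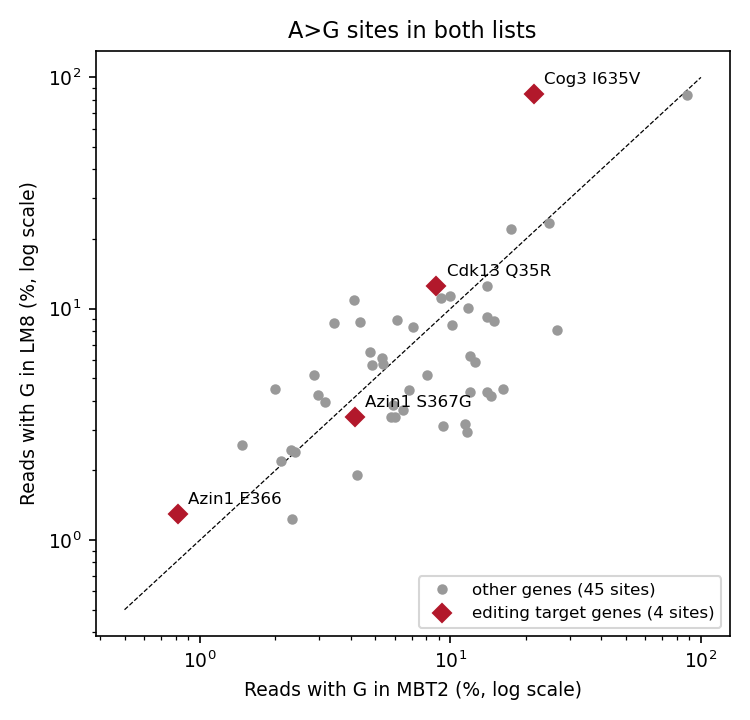
Share of reads with G in LM8 (y axis) and MBT2 (x axis), both in percent on log scales, at the 49 A>G sites in both lists, with reads of 2 libraries summed per line; diamonds are the 9 genes, grey circles other genes, and the dashed line marks equal shares. Cog3 I635V lies 63.2 percentage points above the line of equal shares, and no other site differs by more than 20 points.

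Across the 49 A>G sites in both lists, 23 were higher in LM8 and 26 in MBT2. Cog3 had the largest difference of these sites, 63.2 percentage points. The next largest was 18.5 points, lower in LM8, and the next in the direction of Cog3 was 6.81 points. Fisher's exact test on summed reads called 7 of the 49 (14.3%), of which Cog3 was the 1 higher in LM8 and the other 6 were lower there. The sites of other genes most like Azin1 S367G over the 4 libraries were in the 3′ UTRs of Ufd1 and Dnajb12, with mean absolute differences of 0.782 and 1.18 percentage points, and in the pseudogene Tpt1-ps3 (1.26). For Cdk13 Q35R they were in the 3′ UTRs of Zfp609, Haus6 and Atl3 (4.53 to 6.36 points), and for Azin1 E366 in those of Selenot and Derl1 (0.901 and 1.22 points). Cog3 I635V had no near match among the 45 other sites, since the closest, in Rpl7a-ps12, was 32.0 points away.

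No difference between duplicate libraries of a line passed the test at these sites. Adjusted over all records of a list, Fisher's exact test on the reads of both libraries called 0 of the 22 substitutions, and 1 at an unadjusted p under 0.05, Azin1 S367G in MBT2 (exact p = 0.0461). Over all records that unadjusted share was 3.89% in LM8 and 3.76% in MBT2, and 0.0% after adjustment in both. Depth at the sites of the 9 genes ran from 16 to 329 reads per library in LM8 and from 24 to 738 in MBT2. All 22 carried the same population frequency score, 2.02, as 96.2% of all listed substitutions, so the caller's resource gave none of them a frequency of its own. The caller's germline quality, higher where a germline origin is less likely, was lowest at Lactb2 in MBT2 (11) and Cog3 I635V in LM8 (15). At Cog3 I635V in MBT2 it was 52, at the higher Mad2l1 site 56, and at both Azin1 sites 93 in both lines. A germline origin was not tested.

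Other records of the 9 genes were 8 insertions and deletions. A 97-base deletion of Son (position 91461708), equal in length to an intron of the gene, stood at 88.1% of 143 reads in LM8 and 80.4% of 107 in MBT2. Mad2l1 had a 167-base deletion, equal in length to an intron of the gene, at 15.2% of 112 MBT2 reads. It also had an 87-base deletion, which equals no intron of the gene in length, at 12.3% of 57 LM8 and 6.56% of 61 MBT2 reads. Both Mad2l1 deletions were annotated as splice acceptor changes. A 41-base deletion in the Flna 3′ UTR and 2 single-base insertions beside Son transcripts, all in LM8, were at 2.54% to 3.89%.

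Among genes of the editing machinery, the RNA-binding protein gene Fxr1 alone carried a protein-altering A>G change. Of 14 enzymes and cofactors, 3 had a listed substitution in each line, 2 in LM8 and 1 in MBT2 had an A>G one, and 1 in each a protein-altering A>G one. In LM8 this was Fxr1 I241V, with 7 of 296 (2.36%) and 7 of 301 reads (2.33%), and in MBT2 Fxr1 R386G, with 7 of 300 (2.33%) and 3 of 272 (1.10%). The editing enzyme Adar had no listed substitution but had a record of another type in LM8, and Adarb1 had no record in either line. Of 29 other known editing targets, 1 in LM8 and 5 in MBT2 had a substitution and 0 an A>G one, and the 6 cytidine deaminases and cofactors had no record. The lists give no expression levels. Of 12 osteoblast and mesenchymal markers, 3 (Col1a1, Col1a2 and Runx2) had a listed record in LM8, 1 of them a substitution, and 0 in MBT2. None of 12 epithelial and urothelial or 8 other markers had one in either line. A listed record is not a level of expression, so the label of neither line could be checked in this way.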

How the data were processed

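The deposited tables are 1 variant list per line with reads per allele and library. Per the file headers, Mutect 2.2 called the 2 libraries of each line together on GRCm39 with no matched normal, and calls were filtered and annotated with SnpEff 5.1d, 1 effect per record. Per the submitters' processing notes, STAR 2.7.9a and GATK 4.3.0 were used, while the file headers name GATK 4.1.5.0. Per the file headers, the filters included one for germline evidence.

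The members and lists were chosen with earlier results of these data known. All substitutions of the 9 genes were named, and like sites were the 3 nearest per shared site by mean absolute difference. One of these like sites is not reported here. RNA strand came from GENCODE M21 by transcript identifier. Transcript placement matched the listed base at 99.6% of coding and 99.7% of 3′ UTR sites.

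Shares are alternative over all reads, with exact Clopper-Pearson 95% intervals that cover counting error only. A share of 0 allows up to 3 reads of the total. Lines were compared with limma 3.58.1 on log2((alternative + 0.5)/(reference + 0.5)) per library, tested on simulated data, and reads with Fisher's exact test in scipy 1.17.1 and R 4.3.3. RNA was folded with ViennaRNA 2.7.2. Alternatives covered depth, pseudocount, strand, support and replicates.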

Additional observations from a re-analysis of the deposited data

How the results depend on the processing

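The number of listed substitutions in the 9 genes stayed within 1.5 times under the alternatives on effect class, depth, support and strand. Strand by read pair orientation, an alternative chosen after seeing the data, gave the same 15 and 5 A>G substitutions. Leaving out 1 library, and asking for 3 alternative reads in the other, gave 9 to 11 substitutions in LM8, all A>G, and 6 to 7 in MBT2, of which 4 to 5 were A>G; fewer are expected by construction, since each count rests on 1 library. The number of substitutions that differed between the lines was 0 with limma, 2 with a pseudocount of 1, 2 with at least 20 reads in every library, 1 with all record types, 3 with the prior variance trended on depth, and 13 with Fisher's exact test on summed reads, and 0 without any single library.

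Cog3 I635V kept its direction under every alternative run, and its call changed. limma's adjusted p of 0.0552 rose to 0.145 with a pseudocount of 0.1 (4.29 in log2 odds), where 0 substitutions were called. It fell to 0.0146 with a pseudocount of 1 (3.97), to 0.0451 with at least 20 reads in every library (4.14) and to 0.0237 with the trended prior (4.14). Fisher's exact test gave 4.24. The cause was not tested. Without single libraries the log2 odds ran from 3.70 to 4.57, and adjusted p from 0.410 to 0.626. With the replicate number as a block, 2 substitutions were called and Cog3 had an adjusted p = 8.36e-06 (4.14). The numbers only name the libraries: over the 230 sites, deviations of same-numbered libraries had a correlation of 0.0551.

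Cdk13 Q35R turned to -0.41 without MBT2 replicate 2, and its other values without a library reached 2.83. Azin1 S367G turned to 0.20 without MBT2 replicate 1, with -0.63 as the lowest. Neither passed the test in any setting. Of the 22 site shares, 6 moved by more than the spread between duplicates with the caller's own fraction. It moved 3 by over 1.5 times, Cdk13 N177S from 4.92% to 8.1%, Cog3 E634 from 6.67% to 10.5% and Son from 4.55% to 7.15%.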
